A study of Mus musculus with 12 samples.

Results

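Transcript levels of 41 cell cycle and DNA replication genes were followed in dendritic cells derived from mouse bone marrow. The genes came from a list of 42 named by hand, matched by Entrez identifier and symbol, out of 11786 genes in the table. Ccnb1 was not analysed here. All 41 passed the filter on low values (a largest group mean of at least 4 in log2 units). The cells came from wild-type mice or from mice labelled Ythdf1-/- (here KO-labelled). Ythdf1 encodes a reader of N6-methyladenosine, a chemical mark on mRNA. Both genotypes were profiled untreated and after a night with necrotic B16-OVA (here lysate), dead cells of a melanoma line from mice that expresses ovalbumin, from which the dendritic cells were then purified. There were 2 libraries in each of these 4 groups, named W1 and W2 (wild type alone), WL1 and WL2 (wild type with lysate), K1 and K2 (KO-labelled alone) and KL1 and KL2 (KO-labelled with lysate) by their replicate numbers. The labels do not state whether libraries of 1 group are from separate animals, and the p-values measure only their spread, which may be technical. Neither the age of the mice nor the altered part of Ythdf1 is given in the labels. The series also holds 4 immunoprecipitation samples, which were not analysed here.

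A cell enters division when D cyclins, induced by growth factors and by MYC, bind CDK4 or CDK6 and relieve the block that the RB proteins place on E2F transcription factors. E2F and cyclin E then turn on the replication genes, among them the MCM helicase, the sliding clamp PCNA and the enzymes that make deoxynucleotides. Cyclins A and B, CDK1, the Aurora and Polo kinases, kinesins and centromere proteins carry the cell through mitosis, and their genes share the late activators FOXM1, B-MYB and MuvB. Inhibitors of the INK4 family (Cdkn2c) block CDK4 and CDK6, and those of the CIP and KIP family (Cdkn1a, Cdkn1b) bind cyclin and kinase complexes. In cultures of bone marrow, dividing precursors give rise to dendritic cells and other myeloid cells that leave the cycle as they mature.

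Values are log2 levels per library, and changes are differences of group means on that log2 scale ± the standard error of the limma fit. A gene was called when its p-value, adjusted over all 11785 genes tested, was below 0.05. The reads per library are unknown, since the table holds no counts. Ythdf1 itself stood at 9.58 and 9.43 in wild type alone, 9.72 and 9.58 in wild type with lysate, 9.53 and 9.43 in KO-labelled alone and 9.51 and 9.46 in KO-labelled with lysate, and its difference between genotype labels was -0.03 ± 0.081, adjusted p = 0.85 without lysate and -0.16 ± 0.081, adjusted p = 0.202 with lysate. The value of the whole gene therefore does not check the genotype labels. Of 19 dendritic cell markers 17 were measured. The defining markers Cd74 and H2-Ab1 lay at percentiles 99.9 and 99.8 of genes in level per transcript length in wild type alone, Itgax at 88.6, Flt3 at 77.5 and Zbtb46 at 49.2. With lysate 10 of the 17 were lower in wild type and 9 in KO-labelled cells, where 11.3% and 6.92% of all genes were lower. Between genotype labels 6 were higher and 1 lower without lysate, and 9 higher and 0 lower with lysate. Of all genes, 7.02% were higher and 9.23% lower without lysate, and 7.44% higher and 5.45% lower with lysate. None of the listed B cell, T and NK cell or erythroid markers was analysed here.

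The promoters of 6 listed genes are printed below because their transcripts moved in the comparisons that follow. Mki67, Top2a, Ccnb2, Cenpf and Cenpe are mitosis genes that were lower in KO-labelled cells in at least 1 treatment (Cenpf without and Ccnb2 with lysate, the others in both), and Pcna is the replication gene that rose furthest with lysate. Each line gives the 150 bases before the RefSeq transcription start in the assembly GRCm38.p6, 5′ to 3′ on the gene's strand. This assembly is not the build of the authors' alignment. Capitals mark 3 motifs on either strand: the cell cycle homology region to which MuvB binds (TTTGAA or TTCGAA), the CCAAT box of NF-Y (CCAAT), and an E2F motif (TTGGCGC or TTCCCGC).
Mki67: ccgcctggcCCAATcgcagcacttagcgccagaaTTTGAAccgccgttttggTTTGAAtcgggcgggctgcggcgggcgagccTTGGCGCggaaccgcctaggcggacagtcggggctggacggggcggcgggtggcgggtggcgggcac
Top2a: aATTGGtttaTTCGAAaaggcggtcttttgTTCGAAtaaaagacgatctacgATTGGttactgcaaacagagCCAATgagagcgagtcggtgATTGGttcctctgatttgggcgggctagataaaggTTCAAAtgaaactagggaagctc
Ccnb2: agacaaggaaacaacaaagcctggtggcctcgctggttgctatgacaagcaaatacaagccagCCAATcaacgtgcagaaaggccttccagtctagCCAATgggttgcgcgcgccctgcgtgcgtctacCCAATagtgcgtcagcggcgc
Cenpf: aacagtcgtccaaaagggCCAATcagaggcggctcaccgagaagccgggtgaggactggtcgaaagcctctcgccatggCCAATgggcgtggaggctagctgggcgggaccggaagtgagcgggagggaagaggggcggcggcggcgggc
Cenpe: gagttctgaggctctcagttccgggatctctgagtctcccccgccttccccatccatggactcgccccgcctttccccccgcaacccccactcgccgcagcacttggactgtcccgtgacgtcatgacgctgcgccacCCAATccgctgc
Pcna: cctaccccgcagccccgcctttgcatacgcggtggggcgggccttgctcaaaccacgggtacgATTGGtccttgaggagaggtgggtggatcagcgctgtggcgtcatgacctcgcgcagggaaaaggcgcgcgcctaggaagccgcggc

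These stretches lie at chr7:135716380-135716529 (minus strand), chr11:99024190-99024339 (minus), chr9:70421555-70421704 (minus), chr1:189688087-189688236 (minus), chr3:135212413-135212562 (plus) and chr2:132253181-132253330 (minus). Over the longer RefSeq window, from 250 bases before to 50 after the start, the table of promoters matched 31 of the 41 genes. Of the 13 windows of mitosis genes 11 held the cell cycle homology region and 12 a CCAAT box, against 19.2% and 37.4% of all 32851 windows. Ccnb2 and Cenpf carry a TTTGAA 5 and 3 bases after the start, and Ccnb2 another 167 bases before it, all outside the printed stretches. Of 11 windows of replication genes 2 held the homology region, 9 a CCAAT box and 6 an E2F motif, the last against 6.81% of all windows. Of the 7 D and E cyclins and their kinases 4 matched, without Ccnd1, Ccnd2 and Ccne2, and 0 of their 5 windows held the homology region or the E2F motif, too few to compare with 6.81%. A match describes the letters of the window and was not tested as a binding site.

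In level per transcript length the list spread widely in wild type alone. Mitosis genes lay low, between percentiles 1.74 (Cenpf) and 33.2 (Mki67) of genes, with a median at 10.2. Replication genes lay between 15.1 (Tyms) and 93.5 (Pcna), with a median at 41.8. The highest member was Cdkn1a, which encodes the CDK inhibitor p21, at percentile 98.3. Cdkn1b lay at 78.3, Cdk4 at 78.6, Ccnd3 at 61.2, Ccnd1 at 36.3 and Cdkn2c at 25.3.

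**Figure D1:**
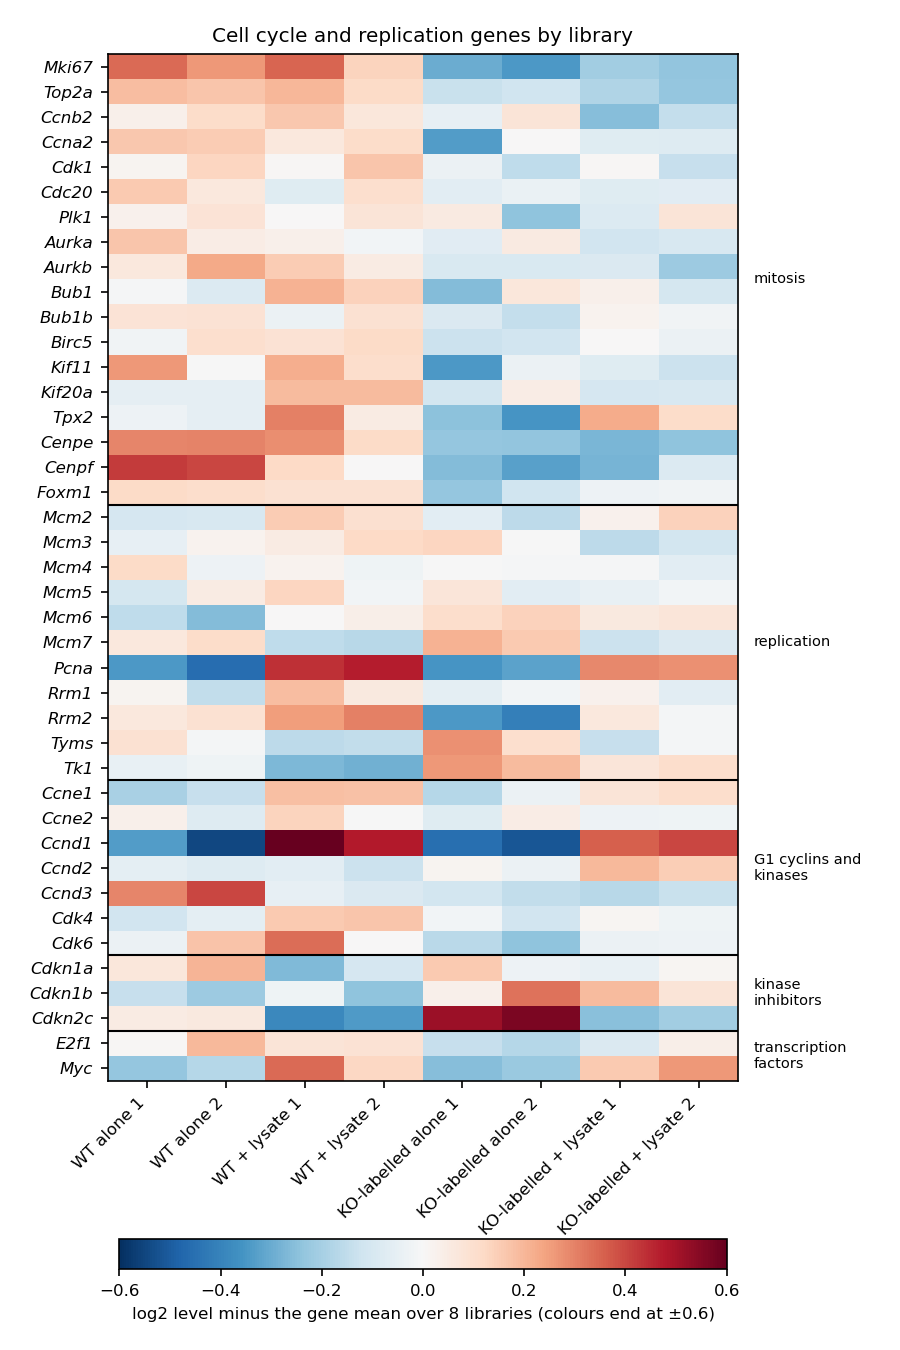
Log2 level of each of the 41 genes (rows, grouped by role) in each of the 8 libraries (columns), as the difference from the gene's mean over all libraries; red is higher and blue lower. Ccnd1 and Pcna are high in the 4 lysate libraries, and Mki67, Cenpe and Cenpf are low in the 4 KO-labelled libraries.

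With lysate, 12 of the 41 genes (29.3%) changed in wild type, 6 higher and 6 lower. Of all genes tested, 21.5% were called there (10.2% higher, 11.3% lower). In KO-labelled cells 7 (17.1%) changed with lysate, 5 higher and 2 lower, against 15.2% of all genes (8.28% higher, 6.92% lower). These shares lie near each other, so that count is no result about the list. Between genotype labels 12 (29.3%) differed without lysate, 4 higher and 8 lower in KO-labelled cells, against 16.2% of all genes (7.02% higher, 9.23% lower). With lysate 7 (17.1%) differed, 2 higher and 5 lower, against 12.9% (7.44% higher, 5.45% lower). The median change of the 41 genes was 0.013 with lysate in wild type and 0.029 in KO-labelled cells, beside -0.010 and -0.0013 over all genes. Between genotype labels it was -0.057 without and -0.11 with lysate, beside 0.0022 and -0.0085. The genes called with lysate thus went both ways, and the median of the list lay within 0.029 of 0 in each genotype. Leaving out 1 library changed these counts. The 12 for lysate in wild type became 5 without W2 or WL1, 6 without WL2 and 7 without W1, where 8.75%, 9.42%, 15.9% and 19.2% of all genes were called. The 7 in KO-labelled cells became 4 without KL1, with 4.79% of all genes called. The 12 between labels without lysate became 7 without W2, with 10.1% of all genes called. The 7 with lysate became 0 without KL1, 1 without KL2, 2 without WL1 and 3 without WL2, with 1.64%, 4.14%, 5.69% and 6.08% of all genes called. The share of all genes called thus fell in each of these fits too. In all, 23 genes were called in at least 1 of these comparisons and 18 in none.

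The D cyclin Ccnd1, which starts the cycle in response to growth signals, rose with lysate in both genotypes. Its log2 level was 8.03 and 7.82 in wild type alone, 8.98 and 8.84 in wild type with lysate, 7.92 and 7.85 in KO-labelled alone and 8.73 and 8.77 in KO-labelled with lysate. All 4 lysate libraries lay above all 4 libraries without lysate. The rise was 1.98-fold in wild type (0.98 ± 0.091, adjusted p = 1.38e-05) and 1.82-fold in KO-labelled cells (0.86 ± 0.091, adjusted p = 7.17e-05), and no difference between genotype labels was called.

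The other D cyclins followed patterns of their own. Ccnd3, the D cyclin of many lymphoid and myeloid cells, stood at 9.29 and 9.40 in wild type alone, 8.95 and 8.91 in wild type with lysate, 8.89 and 8.85 in KO-labelled alone and 8.83 and 8.87 in KO-labelled with lysate. The wild-type libraries without lysate were the highest, and the other 6 lay close together below them. Ccnd3 thus fell 1.33-fold with lysate in wild type (-0.41 ± 0.075, adjusted p = 0.00209) and was 1.39-fold lower in KO-labelled cells without lysate (-0.48 ± 0.075, adjusted p = 0.000842). Both comparisons share the wild-type libraries without lysate. Ccnd2, a D cyclin induced by cytokines, stood at 9.15 and 9.13 in wild type alone, 9.14 and 9.08 in wild type with lysate, 9.22 and 9.17 in KO-labelled alone and 9.40 and 9.36 in KO-labelled with lysate, and the KO-labelled lysate libraries were the highest. It was 1.2-fold higher in KO-labelled cells with lysate (0.27 ± 0.072, adjusted p = 0.0283), and this call was lost without any 1 of the 4 lysate libraries (differences of 0.24 to 0.30, adjusted p up to 0.235).

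Myc, the transcription factor that drives growth and cell cycle entry, rose with lysate in both genotypes alongside Ccnd1. It stood at 7.34 and 7.40 in wild type alone, 7.91 and 7.69 in wild type with lysate, 7.31 and 7.35 in KO-labelled alone and 7.72 and 7.83 in KO-labelled with lysate. No lysate library overlapped a library without lysate. The rise was 1.35-fold in wild type (0.43 ± 0.093, adjusted p = 0.00567) and 1.36-fold in KO-labelled cells (0.44 ± 0.093, adjusted p = 0.00652). It missed the threshold without WL1 (0.33, adjusted p = 0.074) and without KL2 (0.39, adjusted p = 0.0845) respectively. Genotype labels differed by -0.036 ± 0.093, adjusted p = 0.845 without and -0.025 ± 0.093, adjusted p = 0.887 with lysate.

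Cyclin E1 and CDK4, which act at the step from G1 into S phase, passed the threshold with lysate in wild type. Ccne1 stood at 5.57 and 5.63 in wild type alone, 5.95 and 5.95 in wild type with lysate, 5.60 and 5.74 in KO-labelled alone and 5.85 and 5.87 in KO-labelled with lysate, and all lysate libraries lay above those without. Its rise was 0.35 ± 0.087 in wild type (adjusted p = 0.0135) and 0.19 ± 0.087 in KO-labelled cells (adjusted p = 0.153), and the difference between these values did not pass the threshold (-0.15 ± 0.12, adjusted p = 0.78). Cdk4 stood at 9.47 and 9.52 in wild type alone, 9.74 and 9.75 in wild type with lysate, 9.56 and 9.47 in KO-labelled alone and 9.59 and 9.56 in KO-labelled with lysate, with the wild-type lysate libraries highest. It rose by 0.25 ± 0.071 in wild type (adjusted p = 0.0265) against 0.059 ± 0.071 in KO-labelled cells (adjusted p = 0.617), a difference of -0.19 ± 0.10, adjusted p = 0.684. Ccne1 lost its call without any 1 of the 4 wild-type libraries (0.32 to 0.38, adjusted p up to 0.0732), and Cdk4 without any of these or KL1 or KL2 (0.22 to 0.27, adjusted p up to 0.105). Ccne2, Cdk6 and E2f1, the last an activator of replication genes, were called in no comparison. For Ccne2 and Cdk6 the changes lay between -0.27 and 0.17, and for E2f1 between -0.25 and 0.13, the lowest of each between genotype labels without lysate.

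Among the inhibitors, Cdkn2c, the INK4 protein that blocks CDK4 and CDK6, fell with lysate in both genotypes. Its levels were 6.59 and 6.60 in wild type alone, 6.16 and 6.20 in wild type with lysate, 7.05 and 7.11 in KO-labelled alone and 6.29 and 6.33 in KO-labelled with lysate. The KO-labelled libraries without lysate were the highest, wild type without lysate came next, and the 4 lysate libraries were the lowest. Cdkn2c fell 1.33-fold with lysate in wild type (-0.41 ± 0.084, adjusted p = 0.00406) and 1.7-fold in KO-labelled cells (-0.77 ± 0.084, adjusted p = 9.5e-05). Without lysate it was 1.4-fold higher in KO-labelled cells (0.49 ± 0.084, adjusted p = 0.0016), and with lysate the difference was 0.13 ± 0.084, adjusted p = 0.323. The KO-labelled libraries without lysate enter both the fall in that genotype and the difference without lysate. The falls of the genotypes differed by -0.35 ± 0.12, which did not pass the threshold (adjusted p = 0.44).

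The CIP and KIP inhibitors moved less. Cdkn1a, the p21 gene induced by p53 and by differentiation, stood at 12.93 and 13.07 in wild type alone, 12.60 and 12.76 in wild type with lysate, 13.02 and 12.83 in KO-labelled alone and 12.82 and 12.87 in KO-labelled with lysate. The wild-type lysate libraries were the lowest, and the fall in wild type was -0.32 ± 0.082, adjusted p = 0.0155, against -0.081 ± 0.082, adjusted p = 0.544 in KO-labelled cells. Its call was lost without W2 (-0.25, adjusted p = 0.139) or WL1 (-0.24, adjusted p = 0.144). Cdkn1b, the p27 gene associated with rest, stood at 10.66 and 10.58 in wild type alone, 10.78 and 10.56 in wild type with lysate, 10.83 and 11.12 in KO-labelled alone and 10.99 and 10.88 in KO-labelled with lysate. Without lysate it was 1.28-fold higher in KO-labelled cells (0.36 ± 0.098, adjusted p = 0.0247), and with lysate the difference was 0.27 ± 0.098, adjusted p = 0.0903. That call was lost without W2 (0.31, adjusted p = 0.117), K2 (0.21, adjusted p = 0.155) or KL1 or KL2 (0.36, adjusted p up to 0.051), and in a fit of only the 2 groups compared (adjusted p = 0.0662).

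**Figure D2:**
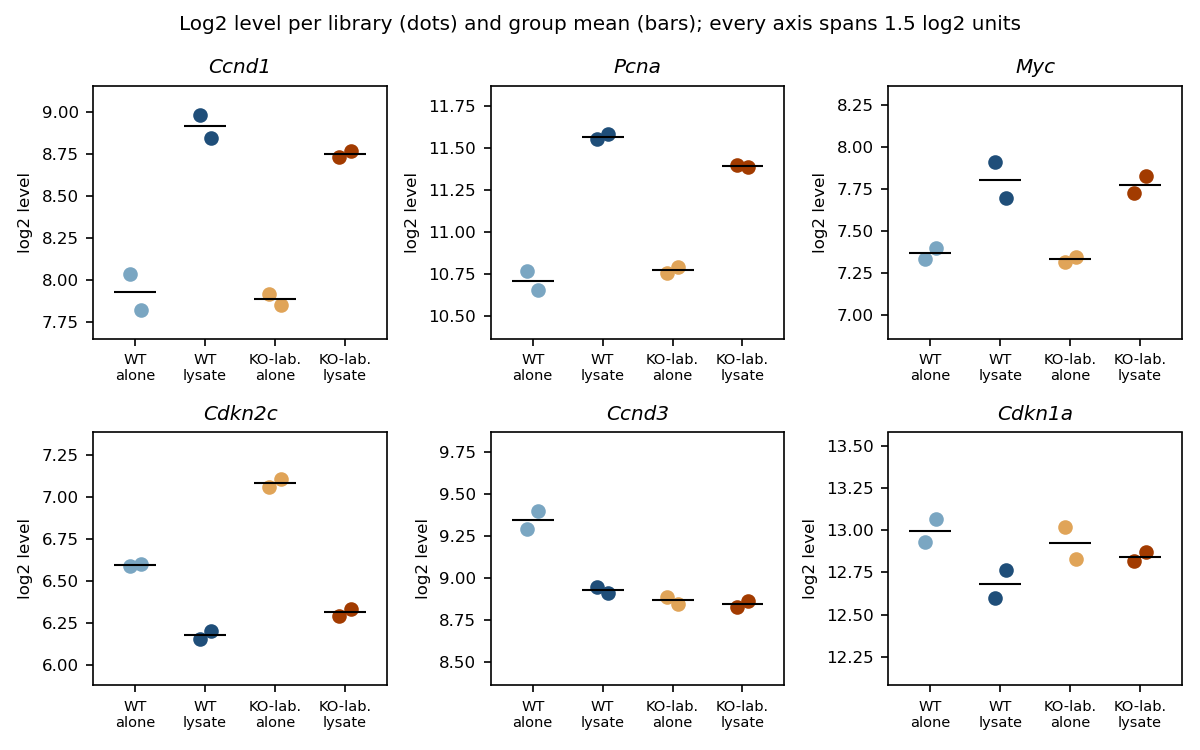
Log2 level (y axis, 1.5 log2 units in every panel) of Ccnd1, Pcna, Myc, Cdkn2c, Ccnd3 and Cdkn1a in each library (dots) with the mean of the 2 libraries of a group (bars). Lysate libraries lie above the others for Ccnd1, Pcna and Myc and below them for Cdkn2c, while Ccnd3 is highest in wild type alone.

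Of the 11 replication genes, Pcna, the clamp that holds DNA polymerase on its template, rose furthest with lysate. It stood at 10.77 and 10.65 in wild type alone, 11.55 and 11.58 in wild type with lysate, 10.76 and 10.79 in KO-labelled alone and 11.40 and 11.39 in KO-labelled with lysate. All 4 lysate libraries lay above all 4 others. The rise was 1.81-fold in wild type (0.86 ± 0.067, adjusted p = 3.09e-06) and 1.53-fold in KO-labelled cells (0.62 ± 0.067, adjusted p = 8.35e-05). The difference between these rises was -0.24 ± 0.094, adjusted p = 0.519. Pcna has annotated pseudogene copies, Pcna-ps1 and Pcna-ps2, whose reads the counting could have shared. The same holds for the called genes Ccnb2 (Ccnb2-ps) and Ccnd3 (Ccnd3-ps).

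The MCM subunits, which form the replicative helicase, went in both directions. Mcm6 stood at 9.23 and 9.12 in wild type alone, 9.38 and 9.42 in wild type with lysate, 9.49 and 9.52 in KO-labelled alone and 9.44 and 9.45 in KO-labelled with lysate, with wild type alone the lowest group. It was 1.17-fold higher with lysate in wild type (0.23 ± 0.072, adjusted p = 0.0408) and 1.26-fold higher in KO-labelled cells without lysate (0.33 ± 0.072, adjusted p = 0.00715), both against the same wild-type libraries. Mcm7, which overlaps Ap4m1 in the annotation, stood at 7.92 and 7.97 in wild type alone, 7.70 and 7.69 in wild type with lysate, 8.07 and 8.01 in KO-labelled alone and 7.73 and 7.77 in KO-labelled with lysate, and the lysate libraries were the lowest. It fell by 0.25 ± 0.08 in wild type (adjusted p = 0.0435) and by 0.29 ± 0.08 in KO-labelled cells (adjusted p = 0.0266). Mcm2, Mcm3, Mcm4 and Mcm5 were called in no comparison, nor were Rrm1, a subunit of ribonucleotide reductase, and Tyms, thymidylate synthase. The changes of these 6 lay between -0.19 and 0.22 with lysate in wild type and -0.26 and 0.19 in KO-labelled cells, and their differences between labels between -0.048 and 0.15 without and -0.22 and 0.077 with lysate. The call of Mcm6 with lysate was lost without W2 (0.17, adjusted p = 0.283), WL1 or WL2 or KL1 or KL2, and its call between labels without W2 (0.28, adjusted p = 0.0682). In a fit of only the groups compared, the calls of Mcm6 and Mcm7 with lysate in wild type were also lost (0.0756 and 0.0682 as adjusted p). Mcm7 in wild type was lost without any of the 4 wild-type or KL1 or KL2 (adjusted p up to 0.227), with each library centred on one median (adjusted p = 0.0542) and under quantile normalization (0.0553), and Mcm7 in KO-labelled cells without K1 or KL1 or KL2 (adjusted p up to 0.173).

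The enzymes that make deoxynucleotides moved in different directions. Rrm2, the regulated subunit of ribonucleotide reductase, stood at 6.05 and 6.08 in wild type alone, 6.23 and 6.29 in wild type with lysate, 5.64 and 5.58 in KO-labelled alone and 6.05 and 5.97 in KO-labelled with lysate. The KO-labelled libraries without lysate were the lowest of the 8. Rrm2 was 1.37-fold lower in KO-labelled than in wild-type cells without lysate (-0.46 ± 0.085, adjusted p = 0.00264) and 1.32-fold higher with lysate in KO-labelled cells (0.40 ± 0.085, adjusted p = 0.00683), comparisons that share those libraries. The second call was lost without KL1 (0.37, adjusted p = 0.076). In wild type its change with lysate was 0.20 ± 0.085, adjusted p = 0.115.

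Tk1, the thymidine kinase of the salvage pathway, went the other way. It stood at 8.13 and 8.16 in wild type alone, 7.91 and 7.89 in wild type with lysate, 8.44 and 8.37 in KO-labelled alone and 8.26 and 8.28 in KO-labelled with lysate, and the KO-labelled libraries lay above the wild-type libraries of the same treatment. It was 1.2-fold higher in KO-labelled cells without lysate (0.26 ± 0.078, adjusted p = 0.0362) and 1.29-fold higher with lysate (0.37 ± 0.078, adjusted p = 0.00919). In wild type Tk1 fell with lysate by 0.24 ± 0.078 (adjusted p = 0.0414). Tk1 overlaps Afmid in the annotation. Without lysate its call between labels was lost without any 1 of the 4 libraries compared or KL1 or KL2 (0.23 to 0.30, adjusted p up to 0.174), with lysate without WL2 or KL1 or KL2 (0.35 to 0.38, adjusted p up to 0.0951), and the fall in wild type without any wild-type or KO-labelled lysate library (adjusted p up to 0.192) or with each library centred on one median (0.0522). The calls without lysate and in wild type were also lost in fits of only the groups compared (adjusted p = 0.0911 and 0.0698). Tyms was the uncalled replication gene with the lowest values with lysate, at -0.19 ± 0.095 and -0.26 ± 0.095 with lysate in wild type and KO-labelled cells (adjusted p = 0.164 and 0.0772).

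Part of the mitosis genes were lower in KO-labelled cells. Without lysate 6 of 18 were lower and 0 higher, where 9.23% of all genes were lower, and with lysate 5 of 18 were lower and 0 higher, where 5.45% of all genes were lower. The median difference of the 18 was -0.22 without and -0.19 with lysate, and 17 and 18 of them respectively lay below 0, beside 5820 and 6125 of the 11785 genes tested. The effect of lysate itself passed the test for 1 of 18 in each genotype, with medians of -0.021 in wild type and 0.073 in KO-labelled cells, against 21.5% and 15.2% of all genes called. In bulk libraries, fewer dividing cells and less of these transcripts per cell cannot be told apart.

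Mki67, the proliferation marker Ki-67 found in cycling cells, stood at 9.22 and 9.14 in wild type alone, 9.23 and 9.01 in wild type with lysate, 8.58 and 8.53 in KO-labelled alone and 8.67 and 8.64 in KO-labelled with lysate. Every KO-labelled library lay below every wild-type library. The difference was 1.54-fold without lysate (-0.62 ± 0.086, adjusted p = 0.000327) and 1.38-fold with lysate (-0.46 ± 0.086, adjusted p = 0.00416). Cenpe, a kinesin that attaches chromosomes to the spindle, showed the same order, at 7.01 and 7.01 in wild type alone, 6.99 and 6.83 in wild type with lysate, 6.48 and 6.48 in KO-labelled alone and 6.44 and 6.47 in KO-labelled with lysate. It was lower by 0.53 ± 0.089 without lysate (adjusted p = 0.00129) and by 0.46 ± 0.089 with lysate (adjusted p = 0.00553). Top2a, the topoisomerase that untangles sister chromosomes, stood at 7.96 and 7.94 in wild type alone, 7.97 and 7.88 in wild type with lysate, 7.64 and 7.65 in KO-labelled alone and 7.59 and 7.54 in KO-labelled with lysate, again with all KO-labelled libraries below all of wild type. Its differences were -0.30 ± 0.082, adjusted p = 0.0215 without and -0.36 ± 0.082, adjusted p = 0.0123 with lysate.

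Cenpf, a kinetochore protein of late G2 and mitosis, stood at 5.73 and 5.71 in wild type alone, 5.43 and 5.31 in wild type with lysate, 5.05 and 4.98 in KO-labelled alone and 5.03 and 5.23 in KO-labelled with lysate. Wild type alone was highest, wild type with lysate in between and the KO-labelled libraries lowest. Cenpf was 1.63-fold lower in KO-labelled cells without lysate (-0.70 ± 0.093, adjusted p = 0.000254), the widest difference of the 41 genes in that comparison, and with lysate the difference was -0.24 ± 0.093, adjusted p = 0.107. It fell with lysate in wild type (-0.35 ± 0.093, adjusted p = 0.0172), against the same wild-type libraries. Foxm1, an activator of late cell cycle genes, stood at 5.17 and 5.16 in wild type alone, 5.15 and 5.15 in wild type with lysate, 4.83 and 4.94 in KO-labelled alone and 5.03 and 5.04 in KO-labelled with lysate, and Ccna2, cyclin A2, at 5.19 and 5.18 in wild type alone, 5.10 and 5.14 in wild type with lysate, 4.70 and 5.03 in KO-labelled alone and 4.96 and 4.96 in KO-labelled with lysate. Without lysate Foxm1 was lower by 0.29 ± 0.083 (adjusted p = 0.0314) and Ccna2 by 0.32 ± 0.10 (adjusted p = 0.0495). With lysate their differences were -0.12 ± 0.083, adjusted p = 0.384 and -0.16 ± 0.10, adjusted p = 0.325.

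Ccnb2, cyclin B2, and Kif20a, a kinesin of the cleavage furrow, were called in the comparison with lysate. Ccnb2 stood at 4.40 and 4.49 in wild type alone, 4.54 and 4.44 in wild type with lysate, 4.33 and 4.45 in KO-labelled alone and 4.12 and 4.23 in KO-labelled with lysate, and Kif20a at 4.42 and 4.41 in wild type alone, 4.66 and 4.66 in wild type with lysate, 4.36 and 4.51 in KO-labelled alone and 4.37 and 4.37 in KO-labelled with lysate. With lysate the KO-labelled libraries of both genes lay below those of wild type, by 0.31 ± 0.087 (adjusted p = 0.032) and 0.29 ± 0.083 (adjusted p = 0.037). Without lysate the differences were -0.057 ± 0.087, adjusted p = 0.726 and 0.02 ± 0.083, adjusted p = 0.906, and the change of the genotype difference with lysate did not pass the threshold (-0.26 ± 0.12, adjusted p = 0.613 for Ccnb2 and -0.31 ± 0.12, adjusted p = 0.489 for Kif20a). Both genes lay low, at percentiles 10.4 (Ccnb2) and 2.79 (Kif20a) in level per transcript length in wild type alone. The SD of Kif20a was 0.0001 in wild type alone and 0.0012 in wild type with lysate. Values of genes with few reads are inferred to be shrunken, so these 2 calls rest on values that may be affected. Tpx2, which activates Aurora A on the spindle, was the mitosis gene that rose with lysate in KO-labelled cells, from 6.13 and 6.02 to 6.59 and 6.48 (0.46 ± 0.10, adjusted p = 0.008). In wild type it went from 6.34 and 6.32 to 6.67 and 6.42 (0.22 ± 0.10, adjusted p = 0.138). Cdk1, Cdc20, Plk1, Aurka, Aurkb, Bub1, Bub1b, Birc5 and Kif11 were called in no comparison. Their differences between genotype labels lay between -0.32 and -0.051 without and between -0.26 and -0.029 with lysate, with 95% intervals that reached from -0.56 to 0.18 and from -0.51 to 0.18.

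**Figure D3:**
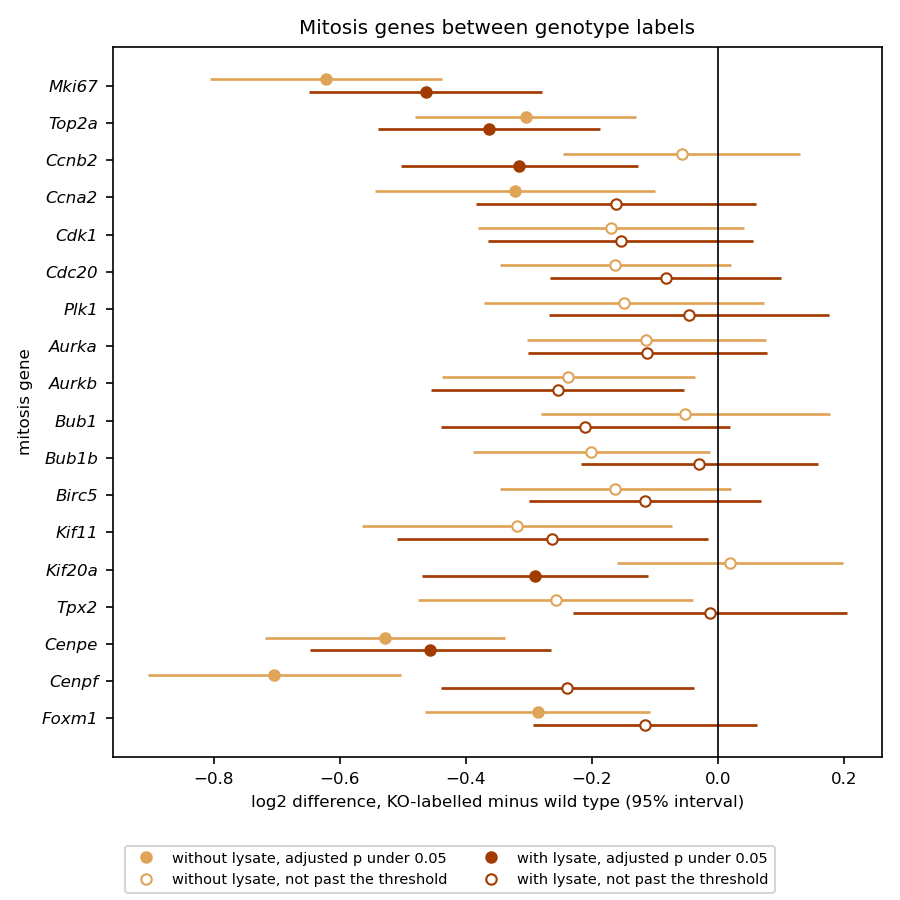
Log2 difference between KO-labelled and wild-type cells (x axis, with 95% interval from the limma fit) for the 18 mitosis genes, without lysate (light) and with lysate (dark); filled points passed the threshold. All points but that of Kif20a without lysate lie below 0, and 6 and 5 points are filled.

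The counts of mitosis genes depended on single libraries. Without lysate 3 of 18 were called without W1 and 3 without K1, where 9.96% and 13.9% of all genes were called. With lysate the count was 1 without WL1, 3 without WL2, 0 without KL1 and 1 without KL2, where 5.69%, 6.08%, 1.64% and 4.14% of all genes were called. Mki67, Cenpe and Cenpf without lysate kept their calls without each of the 8 libraries in turn (adjusted p up to 0.00387, 0.0104 and 0.00266). The calls of Top2a and Foxm1 without lysate were lost without W1 or W2 or K1, that of Top2a also without K2 (adjusted p up to 0.101 and 0.188), and that of Ccna2 without any of 7 libraries. Without K1, the difference of Ccna2 was -0.15. With lysate, Mki67 was lost without KL1 or KL2 (adjusted p up to 0.0679), Cenpe without KL1 or WL1 (0.0848), Top2a without these or KL2 (0.0962), and Ccnb2 and Kif20a without any 1 of the 4 lysate libraries (0.256 and 0.194). The fall of Cenpf with lysate was lost without W1 or W2 or WL2 (adjusted p up to 0.103), and the rise of Tpx2 without KL1 (0.0982). In a fit of only the groups compared, Top2a, Foxm1 and Ccna2 without lysate missed the threshold (adjusted p = 0.058, 0.0715 and 0.122), and Ccna2 also after centring (0.0539) and quantile normalization (0.0569). After removal of trends on GC content and length, Ccnb2 with lysate missed it (-0.24, adjusted p = 0.0891).

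Markers of other myeloid cells moved with the genotype label in the same libraries. Of all genes tested, 9.23% were lower and 7.02% higher in KO-labelled cells without lysate, and 5.45% lower and 7.44% higher with lysate. Of 15 measured neutrophil and precursor markers of 18 listed, 13 were lower in KO-labelled cells without lysate and 12 with lysate, and 0 were higher. Their summed level, as log2 of the summed unlogged values, ranged from 14.51 to 14.58 in wild type alone, 14.42 to 14.56 in wild type with lysate, 13.36 to 13.38 in KO-labelled alone and 13.39 to 13.48 in KO-labelled with lysate. Ngp, a granule protein gene of maturing neutrophils, stood at 11.50 and 11.57 in wild type alone, 11.49 and 11.39 in wild type with lysate, 10.06 and 9.92 in KO-labelled alone and 9.80 and 9.80 in KO-labelled with lysate. The summed level of the 18 mitosis genes on the same scale was 10.67 to 10.69, 10.60 to 10.71, 10.29 to 10.29 and 10.34 to 10.37 in the same order of groups. Mki67, Top2a and Cenpe held 51.9% to 58.7% of that sum, so it follows these called genes more than the median does. The other 15 summed to 9.42 and 9.43, 9.43 and 9.42, 9.19 and 9.21, and 9.31 and 9.27. Of 14 macrophage and monocyte markers 8 were lower without and 4 with lysate, and 0 were higher. Of 6 measured progenitor markers of 10 listed, 1 was higher and 2 lower without lysate, and 2 higher and 1 lower with lysate. Myb, a factor of immature blood cells, was higher in both (0.66 ± 0.09 and 0.53 ± 0.09). In each comparison 4 of the 6 lay above 0 and 2 below, the latter Cd93 and Spink2. The group means of Cd93 were 12.05 in wild type and 11.56 in KO-labelled cells without lysate, and 12.38 and 12.17 with lysate. Those of Spink2 were 4.75 and 4.40 without, and 4.85 and 4.51 with lysate. The part of these cell types in the mitosis genes was not tested.

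**Figure D4:**
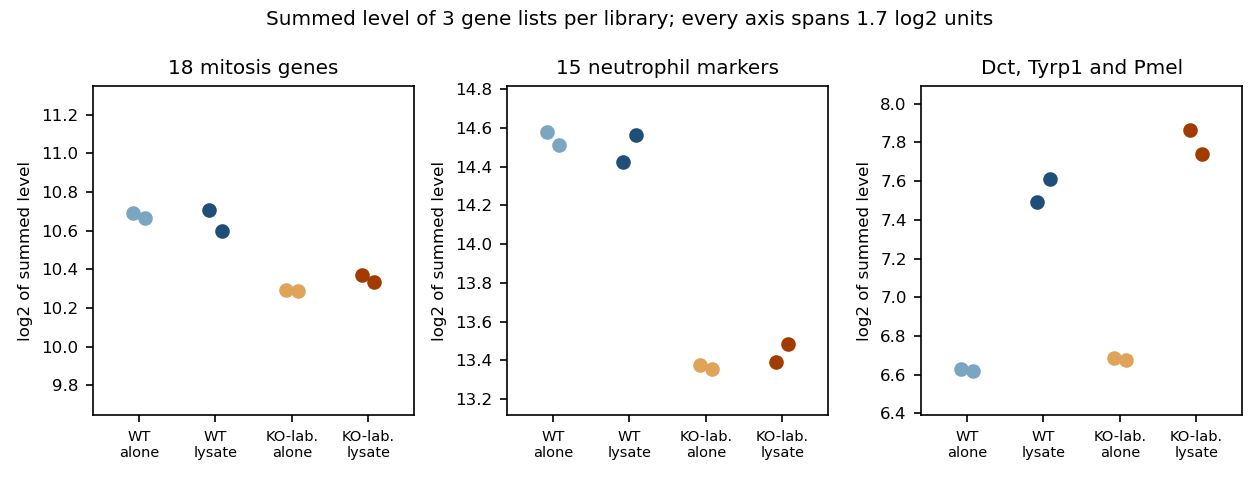
Summed level (y axis, log2 of the summed unlogged values, 1.7 log2 units in every panel) per library for the 18 mitosis genes, 15 neutrophil and precursor markers and the 3 measured defining melanocyte markers. The KO-labelled libraries are the lowest for mitosis genes and neutrophil markers, and the lysate libraries the highest for Dct, Tyrp1 and Pmel.

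Transcripts of melanocyte genes moved with lysate in the same libraries as Ccnd1, Pcna and Myc. All 6 measured melanocyte genes of 15 listed were higher with lysate in each genotype. Of these, Gpnmb and Mitf were already at percentiles 99.8 and 65.3 in level per length in wild type alone, so these 2 do not mark melanoma RNA here. The defining markers Dct, Tyrp1 and Pmel together ranged from 6.62 to 6.63 in wild type alone, 7.49 to 7.61 in wild type with lysate, 6.67 to 6.69 in KO-labelled alone and 7.74 to 7.86 in KO-labelled with lysate on the summed log2 scale, and the other defining markers Tyr, Mlana and Sox10 were not analysed here. In level per transcript length, Dct lay at percentile 12.4 and Tyrp1 at 14.7 of genes in wild type with lysate. In wild type alone both genes stood at 4.75 in each library, with an SD of 0.0001. The values are inferred to be on a logarithm that shrinks the changes of genes with few reads. These rises and percentiles may therefore understate the melanoma RNA. With lysate, 2 of the 6 were higher in KO-labelled than in wild-type cells, Dct (0.29 ± 0.087) and Tyrp1 (0.38 ± 0.092). The other 4 were not called, and 2 of them lay below 0, Gpnmb (-0.18 ± 0.066, adjusted p = 0.0835) and Mitf (-0.14 ± 0.086, adjusted p = 0.302). The part of melanoma RNA in the rises with lysate was not tested.

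Further genes of the same pathways, from lists named by hand, were read beside the share of all genes called in the same comparison, which was 21.5% and 15.2% for lysate in wild type and KO-labelled cells and 16.2% and 12.9% between labels without and with lysate. Counts near or below these shares are no result about a list. Of 65 measured mitosis genes outside the list, 2 changed with lysate in wild type (1 higher, 1 lower) and 5 in KO-labelled cells (2 higher, 3 lower). Between genotype labels 9 were lower and 2 higher without lysate, and 2 lower and 0 higher with lysate, with medians of -0.088 and -0.090. These were 3.08%, 7.69%, 16.9% and 3.08% of the list in the 4 comparisons. Those lower without lysate included Ckap2l (-0.57 ± 0.089), a spindle protein, Cdc25b (-0.40 ± 0.083), a phosphatase that activates CDK1, and Ube2c (-0.36 ± 0.085), which marks cyclins for destruction. Pkmyt1, a kinase that restrains CDK1, was higher (0.39 ± 0.092). Ube2c was lower with lysate too (-0.33 ± 0.085), as was the cytokinesis gene Anln (-0.30 ± 0.086). In KO-labelled cells lysate raised Cdc25b (0.39 ± 0.083) and Iqgap3 (0.45 ± 0.10). It lowered Tacc3 (-0.49 ± 0.082), a spindle protein, and Haus8 (-0.42 ± 0.074). Haus8 was lower with lysate in wild type too (-0.23 ± 0.074). Wild-type group means without and with lysate were 7.61 and 7.77 for Cdc25b and 6.42 and 6.53 for Iqgap3. Those of Tacc3 were 7.86 and 7.62. For the difference of the lysate effects 0 of the 65 were called, beside 0.11% of all genes.

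Among 76 other replication genes, lysate raised 9 and lowered 1 in wild type, and 4 rose and 2 fell in KO-labelled cells. Cdc6, which loads the MCM helicase, rose in wild type (0.43 ± 0.086) and in KO-labelled cells (0.41 ± 0.086). Nasp, a histone chaperone (0.44 ± 0.088), Prim1, a primase subunit (0.34 ± 0.089), and the origin kinase Cdc7 (0.32 ± 0.088) rose in wild type. Their KO-labelled group means without and with lysate were 8.72 and 8.86, 5.52 and 5.55, and 5.13 and 5.34. In KO-labelled cells the polymerase subunit Pold1 (-0.37 ± 0.085) and Dut, which removes dUTP (-0.42 ± 0.087), fell. The maintenance methyltransferase Dnmt1 rose there (0.29 ± 0.072). In wild type the group means without and with lysate were 8.31 and 8.08 for Pold1 and 7.47 and 7.37 for Dut. Those of Dnmt1 were 10.02 and 10.28. By the difference of the lysate effects 0 of the 76 were called, beside 0.11% of all genes. Between genotype labels 5 were higher and 2 lower without lysate, and 4 higher and 2 lower with lysate. The shares called, 13.2% and 7.89% with lysate and 9.21% and 7.89% between labels, all lay below those of all genes. Shmt1 and Mthfd2, enzymes of folate metabolism, were higher in KO-labelled cells without lysate (0.53 ± 0.11 and 0.34 ± 0.067) and with lysate (0.63 ± 0.11 and 0.37 ± 0.067), as was Gins3 (0.29 ± 0.073 and 0.32 ± 0.073), a part of the helicase.

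In the network of MYC and its targets, lysate raised 6 of 21 and lowered 2 in wild type, and 1 rose and 1 fell in KO-labelled cells, which is 38.1% and 9.52% of the list. The genes that rose in wild type included Nop58 (0.58 ± 0.080) and Nop56 (0.32 ± 0.081), which act in the processing of ribosomal RNA. The polyamine enzyme Srm rose there too (0.74 ± 0.11). In KO-labelled cells the group means without and with lysate were 8.29 and 8.52 for Nop58 and 9.38 and 9.37 for Nop56. Those of Srm were 7.11 and 7.44. Of the 21 genes 0 were called for the difference of the lysate effects, beside 0.11% of all genes. Mxd4, an antagonist of MYC, fell in wild type (-0.66 ± 0.11) and in KO-labelled cells (-0.59 ± 0.11). Among 28 regulators of E2F, RB and MuvB, 2 rose and 3 fell in wild type and 1 rose and 1 fell in KO-labelled cells, shares below those of all genes. Tfdp2, a partner of E2F proteins, fell in each (-0.49 ± 0.094 and -0.45 ± 0.094). The phosphatase Cdc25a (0.36 ± 0.10) and the ubiquitin ligase part Skp2 (0.33 ± 0.093), which removes p27, rose in wild type. In KO-labelled cells the group means without and with lysate were 7.08 and 7.25 for Cdc25a and 5.88 and 6.03 for Skp2. E2f2 was lower in KO-labelled cells without lysate (-0.45 ± 0.091) and with lysate (-0.33 ± 0.091), the only call of that list in each comparison. Of the other CDK inhibitors 2 were measured. Cdkn2d was lower (-0.60 ± 0.090) and Cdkn2b higher (0.31 ± 0.095) in KO-labelled cells without lysate, and Cdkn2b fell there with lysate (-0.35 ± 0.095).

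Of 27 p53 targets, lysate raised 3 and lowered 5 in wild type, and 3 rose and 6 fell in KO-labelled cells. Plk2 rose in each (0.59 ± 0.065 and 0.43 ± 0.065) and Bbc3, the gene of the apoptosis inducer PUMA, fell in each (-0.67 ± 0.12 and -0.60 ± 0.12). The antiproliferative gene Btg2 fell in wild type (-0.52 ± 0.063). Its group means in KO-labelled cells were 12.08 without and 11.89 with lysate. Between genotype labels 6 were higher and 3 lower without lysate, and 4 higher and 0 lower with lysate. The shares called were 29.6% and 33.3% with lysate and 33.3% and 14.8% between labels. Pmaip1, which encodes NOXA, was higher in KO-labelled cells without and with lysate (0.53 ± 0.078 and 0.33 ± 0.078), as was Sesn2 (0.40 ± 0.072 and 0.50 ± 0.072). Among 13 genes of rest and growth restraint, which include Mxd4 again, lysate raised 0 and lowered 3 in wild type and 1 rose and 1 fell in KO-labelled cells. These were 23.1% and 15.4% of the list, near the 21.5% and 15.2% of all genes. Between genotype labels 3 were lower without and 2 with lysate, and 0 were higher. The shares were 23.1% and 15.4%, beside 16.2% and 12.9% of all genes. Klf2, a factor linked to quiescence in lymphocytes, was lower in KO-labelled cells without lysate (-0.73 ± 0.10) and with lysate (-0.35 ± 0.10), and Txnip, an inhibitor of glucose uptake, likewise (-0.45 ± 0.071 and -0.31 ± 0.071).

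For the difference between the lysate responses of the genotypes, by limma 0 of the 41 passed the threshold, where 0.11% of all genes did, and 7 (17.1%) had an unadjusted p below 0.05, beside 8.32% of all genes. These were Ccnd3 (0.39 ± 0.11, adjusted p = 0.315), Cenpf (0.47 ± 0.13, adjusted p = 0.337), Cdkn2c, Mcm6 (-0.28 ± 0.10), Mcm3 (-0.30 ± 0.11), Kif20a and Pcna. The 95% interval of the difference was -0.40 to 0.16 for Ccnd1, -0.27 to 0.29 for Myc and -0.10 to 0.42 for Mki67, with no adjustment for the number of genes. Outside the list, 0 of the 28 regulators of E2F, RB and MuvB and 0 of the 27 p53 targets passed the threshold. The same held for 0 of the 13 genes of rest and growth restraint.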

How the data were processed

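RNA-seq libraries (8 of the 12 samples, 4 groups of 2, grouped by sample title) were read from 1 deposited table of log2 values per Entrez gene. Libraries were made with a stranded mRNA kit, per the labels' protocols. From the table's name, the authors are inferred to have used the regularized logarithm of DESeq2, a tool that their processing notes list beside STAR, deepTools and mm9. Versions, the counting step with its strand setting, and the gene filter were not stated. Such a logarithm shrinks the changes of genes with few reads. Depth per library is unknown, so no counting error is given. Values lay between 3.24 and 17.88, and library medians between 8.53 and 8.55.

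Symbols came from GRCm38.p6, with 11744 identifiers matched and 42 not. No coordinate of the authors' data is given. Promoters came from RefSeq. Level per length used the longest GENCODE transcript of each of 11487 genes. Of the genes called, Ccna2, Kif20a, Mcm7, Tk1, Ccnd1, Ccnd3 and Cdk4 overlap another measured gene, so shared reads are possible.

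Genes with a largest group mean of at least 4 were tested (11785, 1 removed) with limma 3.58.1 in R 4.3.3 (group means of all 8 libraries in 1 fit, mean-variance trend, 4 residual and 9.33 prior degrees of freedom, two-sided, Benjamini-Hochberg over all genes, threshold 0.05). The 2 libraries of a group differed with an SD over genes between 0.11 and 0.16. Figures were drawn with Python 3.11.15.

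The members and lists were chosen with earlier results of these data known. Every member called in any comparison is named, and genes of other lists were taken from the up to 4 with the smallest p per comparison, of which the text gives a part. Alternatives were a replicate block, other filters, centring, quantile normalization, limma with a robust or untrended variance, fits restricted to the compared groups, removal of trends on GC content and length (11486 genes), other thresholds and leaving out each library. A lone library left in its group is taken to vary as the remaining groups do.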

Additional observations from a re-analysis of the deposited data

How the results depend on the processing

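Of 38 calls of single genes, 13 held under every alternative with a value per gene and none changed direction. The 13 were Ccnd1 and Pcna with lysate in each genotype, Cdkn2c in 3 comparisons, Ccnd3 in 2, and Mki67, Cenpe, Cenpf and Rrm2 between genotype labels without lysate. No median moved beyond the spread between libraries. The number of the 41 genes called ranged, without each library in turn, from 5 to 13 for lysate in wild type, 4 to 8 for lysate in KO-labelled cells, 7 to 11 between labels without lysate and 0 to 8 with lysate, and stayed at 0 for the difference of the lysate effects. Mitosis genes called between labels ranged from 3 to 6 without and 0 to 5 with lysate. At an adjusted p under 0.01 the count was 5 for lysate in wild type, 7 between labels without and 3 with lysate, and at 0.1 it was 11 with lysate. A fit of only the groups compared gave 7 between labels without lysate, 3 of them mitosis genes. A filter at 6 left 3 mitosis genes without and 3 with lysate, since it tests fewer of them. The cause of the other changes was not tested.

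Same-numbered libraries of different groups did not deviate in the same direction throughout (correlation over genes from -0.61 to 0.26), so replicate numbers were taken as names. The -0.61 was between wild type alone and KO-labelled alone. With 2 libraries in a group, its sign depends only on the numbering, so these groups share a deviation with the numbers exchanged. The main fit does not model it, and its source was not tested. With a replicate block, Mcm6, Mcm7 and Tk1 with lysate in wild type, Ccna2 and Tk1 between labels without lysate and Kif20a with lysate lost their calls, and the count was 9 for lysate in wild type, 7 for lysate in KO-labelled cells, 10 between labels without and 6 with lysate, and 0 for the difference. With the numbers of KO-labelled alone exchanged, chosen after seeing the data, the counts were 13, 9, 14, 12 and 0.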

Other observations

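Mcm3 and Mcm6, which encode subunits of 1 helicase, had lysate differences of opposite sign in the 2 genotypes. In wild type both lysate libraries lay above both untreated ones, by 0.10 ± 0.08 for Mcm3 (adjusted p = 0.4) and 0.23 ± 0.072 for Mcm6 (adjusted p = 0.0408). In KO-labelled cells both lay below, with differences of -0.20 ± 0.08, adjusted p = 0.113 and -0.058 ± 0.072, adjusted p = 0.627. The differences between genotypes, -0.30 ± 0.11 and -0.28 ± 0.10, missed the threshold (limma, adjusted p = 0.489 and 0.461). This pair was chosen after its values were seen.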
